A study of Mus musculus with 30 samples.

Results

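The nuclear genes of the mitochondrial respiratory chain were followed through 10 groups of mouse bone marrow progenitors. Of the 11383 genes in the deposited expression table, 89 were chosen by symbol alone: those beginning with Nduf, Sdha to Sdhd, Uqcr, Cox4 to Cox8 or Atp5. They comprised 37 complex I subunits, 8 complex I assembly factors (Ndufaf1 to Ndufaf8), 4 complex II subunits, 8 complex III subunits, 15 complex IV subunits and 17 complex V subunits. A further 2 symbols with these stems, Ndufb1-ps and Cox5b-ps, were left out because of their ending. All 89 members entered every test. The mitochondrially encoded subunits were not analysed here.

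The groups were populations sorted from wild-type (WT) mice, with 3 libraries of total RNA in each. After 2 days of LPS, the lipopolysaccharide of bacterial outer membranes, 4 populations were sampled: GMP, GMP-MoP, proNeu1 and proNeu2. Without LPS (naive), 6 were sampled: MDP, cMoP, GMP, GMP-MoP, proNeu1 and proNeu2. In this field the names stand for granulocyte-monocyte progenitors (GMP), monocyte-dendritic cell progenitors (MDP), common monocyte progenitors (cMoP), monocyte progenitors placed downstream of GMPs (GMP-MoP), and an earlier and a later neutrophil progenitor (proNeu1 and proNeu2). The labels number the libraries as biological replicates and give no sorting gate, age, sex, LPS dose or route, pooling or batch, so p-values measure the spread between these libraries.

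Electrons from NADH enter the chain at complex I, those from succinate at complex II, and both pass by complex III and cytochrome c to complex IV, which reduces oxygen. Complexes I, III and IV pump protons, and complex V uses the gradient to make ATP. The subunits come from both genomes, and those of the nucleus include catalytic cores and many small accessory proteins with short transcripts. Granulocyte maturation is known for a fall in mitochondrial content, and LPS drives emergency production of myeloid cells.

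The deposited values were FPKM, read counts divided by exon length and by the size of the library. The libraries held 23.6 to 41.3 M assigned reads, with a median of 28.6 M. Flt3 and S100a8, among the genes that define these populations, went with the labels of naive MDPs and naive proNeu2. Defining genes of the other groups are not described here. Flt3 averaged 199 ± 8.78 FPKM in MDPs (SD, n = 3), and at most 20.2 FPKM in the other naive groups. S100a8 averaged 16323 FPKM in naive proNeu2 and 2.57 FPKM in MDPs. Other cell types were visible in places: 12 basophil, eosinophil and mast cell genes summed to 7343 to 8885 FPKM in LPS GMPs and to 18230 to 20124 FPKM in naive GMPs. The 10 erythroid and megakaryocyte genes were highest in the LPS library numbered 2 of each population, at 124 to 255 FPKM, against at most 114 FPKM in the other LPS libraries.

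Promoter windows of 4 members are shown: Ndufa5 (complex I), Uqcr10 (complex III) and Atp5k (complex V), which were among the members that rose most after LPS, and Sdhb, which varied most of complex II. Each runs 5′ to 3′ on the gene's strand, from 250 bases before the RefSeq start to 30 bases from it, in GRCm38.p6. The windows are chr6:24527497-24527776 (minus strand) for Ndufa5, chr4:140961021-140961300 (plus strand) for Sdhb, chr11:4704315-4704594 (minus strand) for Uqcr10 and chr5:108434370-108434649 (minus strand) for Atp5k. Capitals mark a match to one of the motifs searched on both strands: GCGCATGC (NRF1), CCGGAAG (GABPA), AAGATGGCG (YY1) and TCAAGGTCA (ERR). The NRF1 letters and their reverse complement overlap in a longer palindrome, so one place can match on both strands. The 4 motifs do not overlap one another in the windows shown.
Ndufa5: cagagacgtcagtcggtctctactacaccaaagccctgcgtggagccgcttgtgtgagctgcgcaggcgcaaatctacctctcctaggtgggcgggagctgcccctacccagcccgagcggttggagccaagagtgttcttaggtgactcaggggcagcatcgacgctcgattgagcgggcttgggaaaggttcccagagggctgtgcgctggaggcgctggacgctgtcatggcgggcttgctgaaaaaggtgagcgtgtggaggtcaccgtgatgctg
Sdhb: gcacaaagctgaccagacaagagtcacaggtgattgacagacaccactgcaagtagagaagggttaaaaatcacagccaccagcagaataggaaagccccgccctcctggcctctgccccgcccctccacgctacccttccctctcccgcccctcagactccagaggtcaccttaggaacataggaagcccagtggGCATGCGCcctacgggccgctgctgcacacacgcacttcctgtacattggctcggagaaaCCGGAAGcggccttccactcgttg
Uqcr10: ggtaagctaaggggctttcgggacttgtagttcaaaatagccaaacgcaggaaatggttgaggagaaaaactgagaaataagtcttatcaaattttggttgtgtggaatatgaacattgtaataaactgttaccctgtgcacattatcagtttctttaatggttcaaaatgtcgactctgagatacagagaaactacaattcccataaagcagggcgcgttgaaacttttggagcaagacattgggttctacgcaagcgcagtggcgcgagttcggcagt
Atp5k: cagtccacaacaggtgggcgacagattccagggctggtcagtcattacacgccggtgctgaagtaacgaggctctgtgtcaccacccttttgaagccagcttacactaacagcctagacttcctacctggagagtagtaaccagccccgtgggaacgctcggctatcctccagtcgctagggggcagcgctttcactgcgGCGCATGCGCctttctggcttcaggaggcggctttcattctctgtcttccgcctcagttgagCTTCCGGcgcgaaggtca
Atp5k held the NRF1 letters on both strands, at one place, and the GABPA letters on the opposite strand. Sdhb held the NRF1 letters on the opposite strand and the GABPA letters once. The windows of Ndufa5 and Uqcr10 held none of the 4 motifs. RefSeq windows of 300 bases, which reach 50 bases from the start, were found for 74 of the 89 members. The NRF1 letters stood in 12 of the 74 (16.2%) and in 6.54% of the 8472 table genes with a window. The GABPA letters stood in 19 (25.7%) and in 22.3%, the YY1 letters in 8 (10.8%) and in 4.18%, and the ERR letters in 2 (2.7%) and in 0.342%. A match is a run of letters and not a measured binding site.

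**Figure D1:**
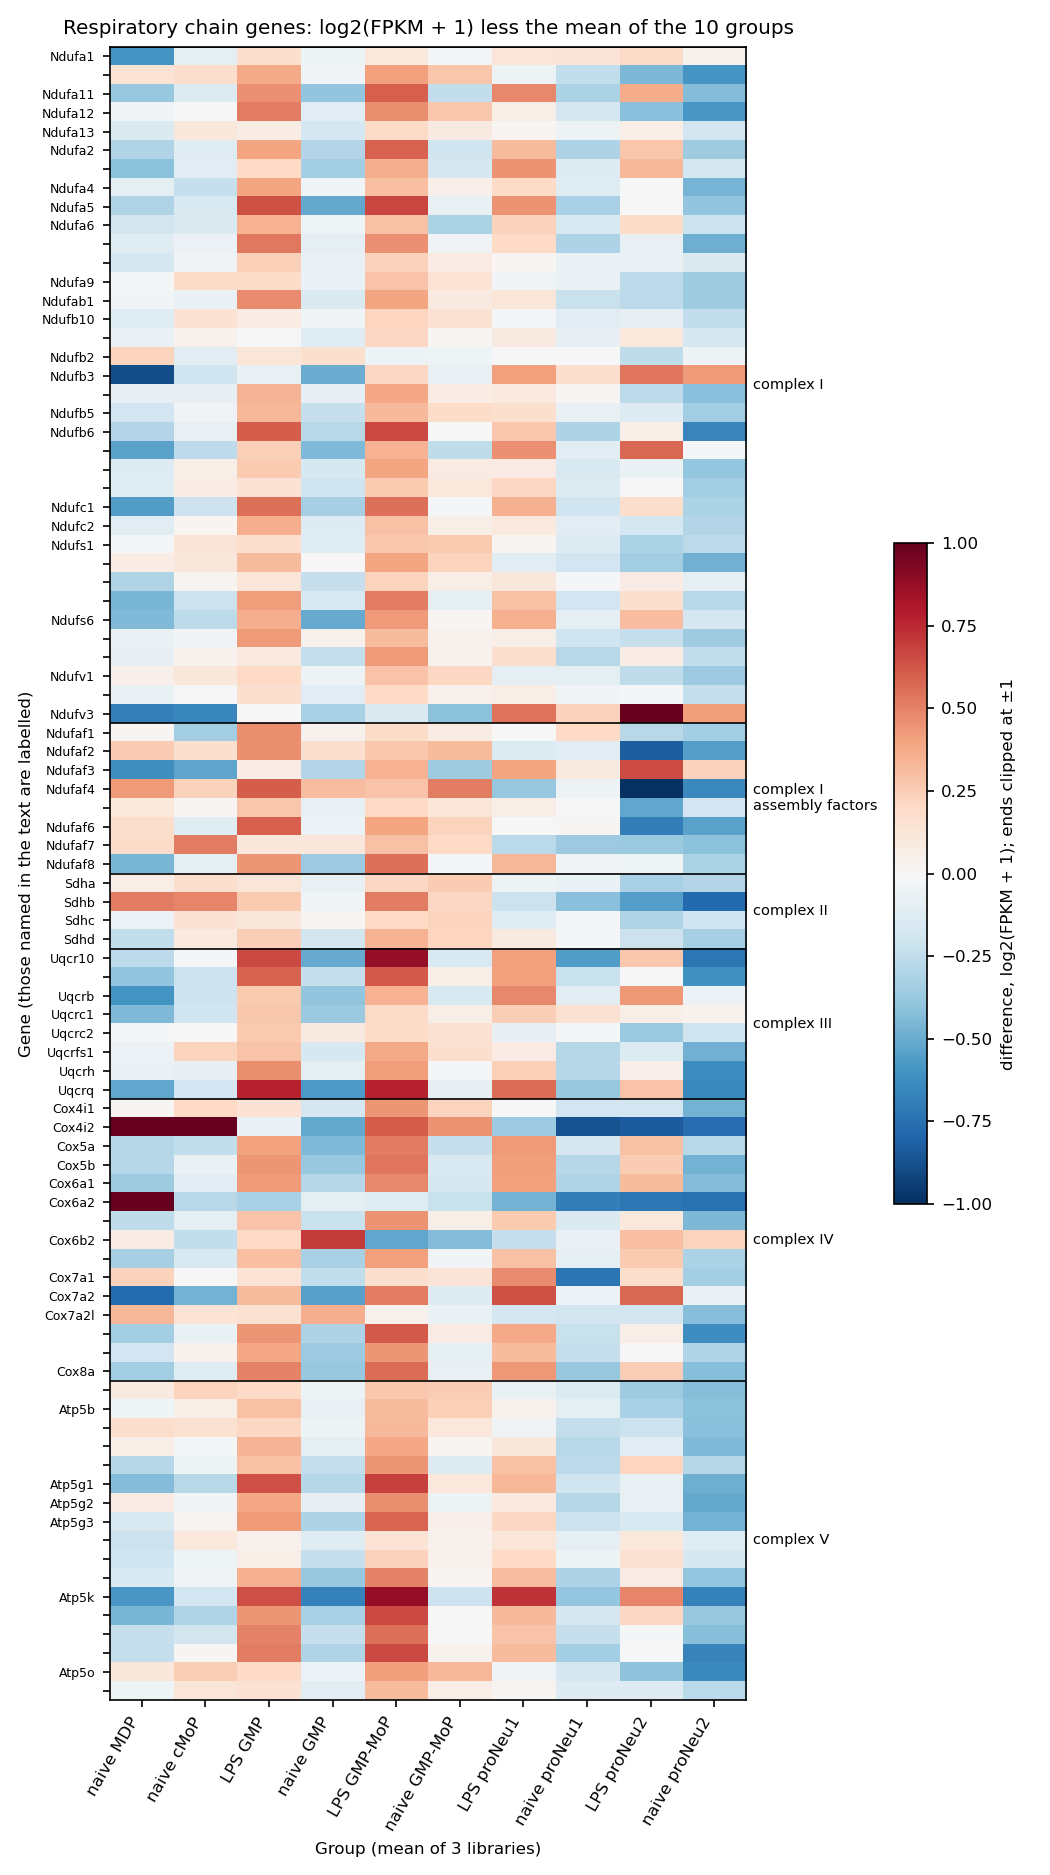
Heat map of the members, all but 1, by complex (down) over the 10 groups (across), with labels for those named in the text. Colour is the group mean of log2(FPKM + 1) minus the member's mean over the 10 groups, limited to 1 in either direction. The LPS columns are the reddest for most members of complexes III to V, while Cox6a2 stands out in MDPs.

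Summed over the 89 members, expression was higher in every LPS population than in its naive counterpart. The sum averaged 11059 ± 415 FPKM in LPS GMPs and 7784 ± 536 FPKM in naive GMPs (SD, n = 3 each). It was 11776 ± 281 FPKM in LPS GMP-MoPs and 9116 ± 189 FPKM in naive GMP-MoPs. In LPS proNeu1 it was 10237 ± 701 FPKM, against 7866 ± 442 FPKM in naive proNeu1, and in LPS proNeu2 9063 ± 454 FPKM, against 6954 ± 711 FPKM in naive proNeu2. No LPS library's sum overlapped its naive counterparts. Naive MDPs had 7945 ± 334 FPKM and naive cMoPs 8802 ± 307 FPKM. The members made up 1.63% of the table's summed FPKM in naive proNeu2, the lowest group mean, and 2.7% in LPS GMP-MoPs, the highest. In bulk RNA, fewer cells of a type and less RNA per cell cannot be told apart.

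**Figure D2:**
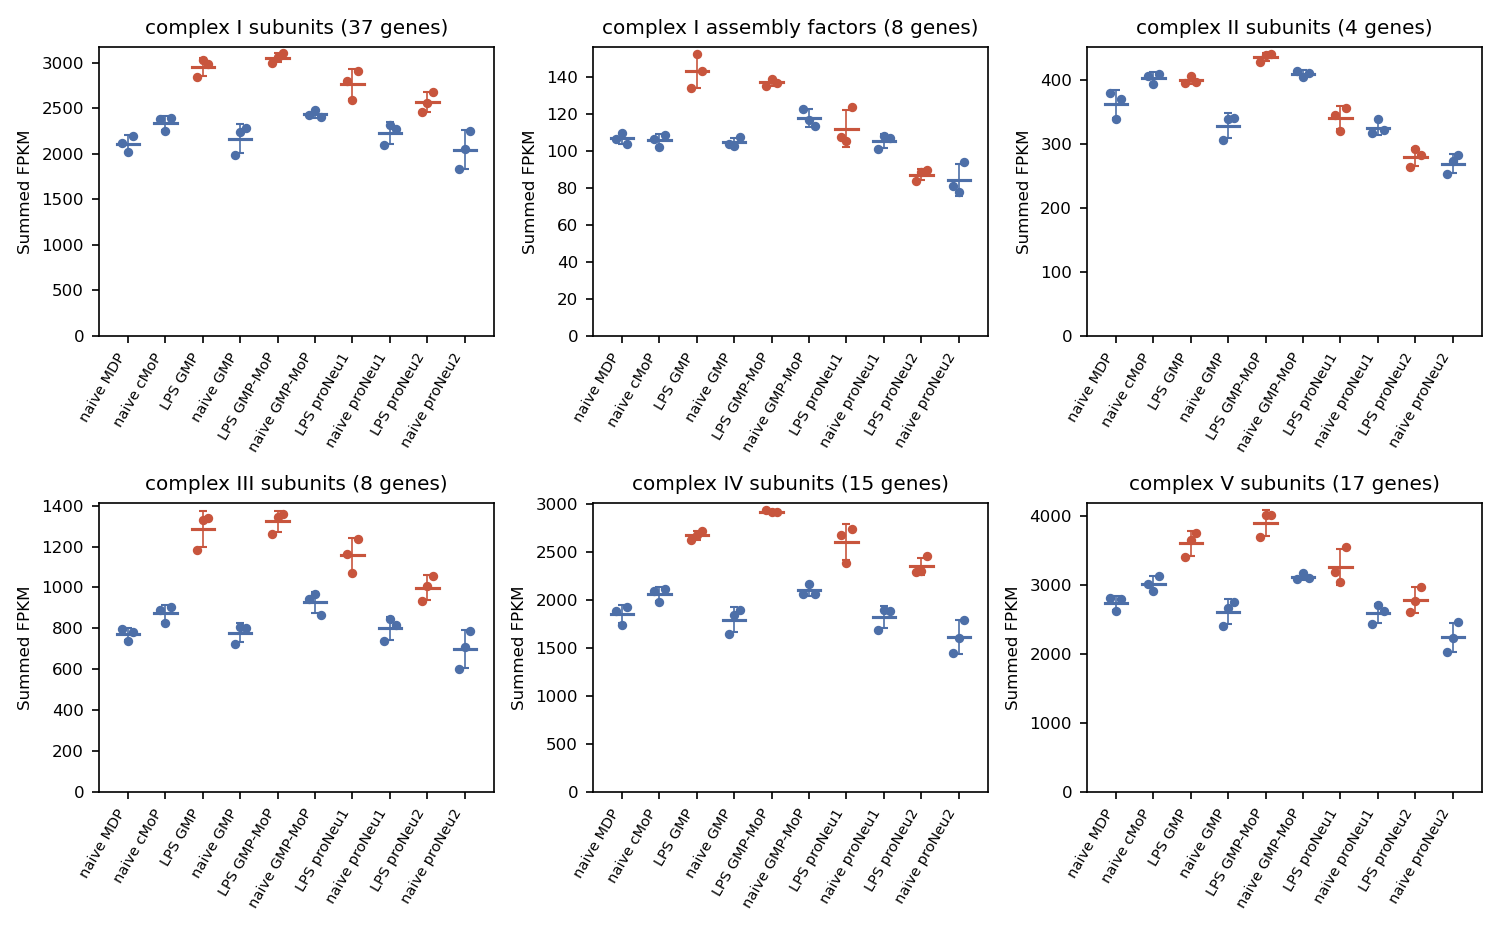
Summed FPKM of the subunits of each complex in each library (points; red, LPS; blue, naive), with group means and SD. Sums for complexes III, IV and V are higher after LPS in all 4 populations, while those of complex II differ little outside GMPs.

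The effect of LPS was tested in each population with limma on log2(FPKM + 1), with Benjamini-Hochberg adjustment over all genes, and a gene was called at an adjusted p under 0.05. Fold changes are on this log2(FPKM + 1) scale, which understates those of genes at low FPKM. In GMPs, 78 of the 89 members were called higher after LPS and 1 lower, where 48.9% of all genes were called in either direction, 19.3% higher and 29.6% lower. In GMP-MoPs, 51 were called higher and 0 lower, against 30.9% of all genes called and 13.4% higher. In proNeu1 it was 52 higher and 1 lower, against 28.4% and 11.2% higher. In proNeu2 it was 52 higher and 2 lower, against 36.7% and 12.6% higher. The median log2 fold change of the members was 0.43 in GMPs, 0.27 in GMP-MoPs, 0.30 in proNeu1 and 0.28 in proNeu2, while that of all genes lay between −0.07 and −0.04. All 3 LPS libraries lay above all 3 naive libraries for 76 members in GMPs (21.5% of all genes), 64 in GMP-MoPs (18.4%), 56 in proNeu1 (15.5%) and 47 in proNeu2 (16.9%). Macrophage sums (7 genes) were 28.3 to 34.5 FPKM in LPS GMPs and 76.8 to 95.01 FPKM in naive GMPs, and erythroid and megakaryocyte sums 94.0 to 255 FPKM in LPS GMPs and 507 to 602 FPKM in naive GMPs. Basophil, eosinophil and mast cell sums (12 genes) were 7343 to 8885 FPKM in LPS GMPs and 18230 to 20124 FPKM in naive GMPs. The part of all these other cells in the members' change was not tested.

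The 4 LPS comparisons have no library in common, but same-numbered LPS libraries of different populations deviated together. Over all 11383 genes, their deviations from the group means correlated at 0.156 to 0.404 in 5 of the 6 pairs of populations and at 0.088 to 0.270 between proNeu1 and proNeu2, so the 4 comparisons are not independent. In all 4, 43 members were called higher, against 3.93% of all genes. These were 15 complex I subunits, 1 assembly factor (Ndufaf3), 6 complex III subunits, 9 complex IV subunits and 12 complex V subunits, with none from complex II. Another 10 were called higher in 3 populations, 3 in 2 and 25 in 1. The 8 called higher in no population were Sdhc, Cox4i2, Ndufb2, Cox6b2, Cox6a2, Ndufb10, Ndufaf7 and Cox7a2l. Without the 4 LPS libraries numbered 2, an alternative chosen after seeing the erythroid values, 69 members were called higher in GMPs, 45 in GMP-MoPs, 50 in proNeu1 and 48 in proNeu2.

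**Figure D3:**
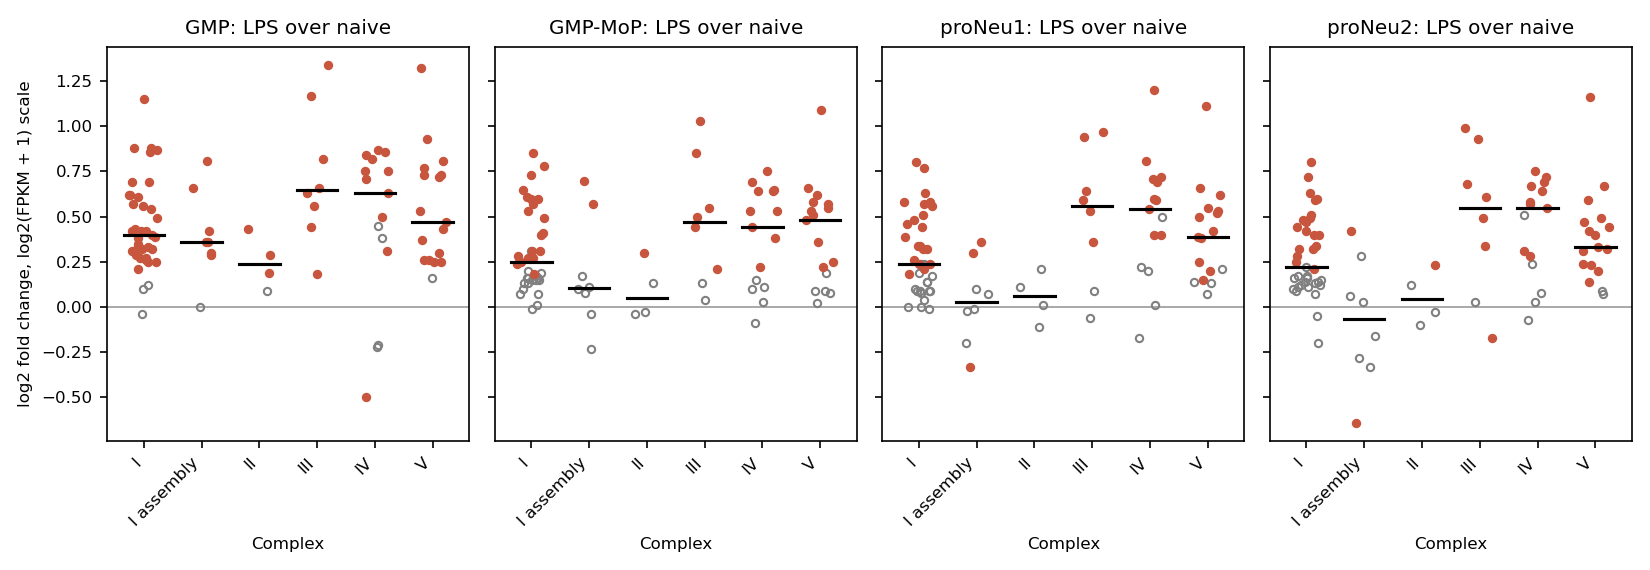
Log2 fold change after LPS of each member, by complex, in the 4 populations (red filled points, adjusted p under 0.05; grey open points, not called; black bars, medians). Medians of complex III lie between 0.47 and 0.65, and those of complex II between 0.04 and 0.24.

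Complex I subunits were called higher after LPS in 34 of 37 cases in GMPs, with a median log2 fold change of 0.40. The counts were 20 in GMP-MoPs, 21 in proNeu1 and 19 in proNeu2, with medians of 0.25, 0.24 and 0.22. The widest change was that of Ndufa5, an accessory subunit of the matrix arm at chr6:24518666-24528013 (GRCm38). Ndufa5 had 47.2, 60.8 and 60.1 FPKM in LPS GMPs, against 20.9, 24.8 and 28.7 FPKM in naive GMPs, a log2 fold change of 1.15 ± 0.11 (SE; limma adjusted p = 9.93e-09). The groups did not overlap. In LPS proNeu2 it had 36.2, 34.3 and 36.5 FPKM, against 25.6, 25.9 and 28.9 FPKM in naive proNeu2, again with no overlap. Ndufa11, an accessory subunit of the membrane arm, had a log2 fold change of 0.85 ± 0.08 in GMP-MoPs (limma adjusted p = 9.56e-08) and 0.80 ± 0.08 in proNeu2 (limma adjusted p = 1.01e-07). Ndufa2 had 0.78 in GMP-MoPs (limma adjusted p = 6e-06).

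The catalytic core of complex I had smaller medians. The 7 core subunits, with a median exon length of 1774 bases, had median log2 fold changes of 0.29 in GMPs, 0.17 in GMP-MoPs, 0.14 in proNeu1 and 0.13 in proNeu2, and 7, 3, 3 and 2 of them were called higher. The 30 accessory subunits, with a median exon length of 868 bases, had medians of 0.43, 0.27, 0.28 and 0.30, and 27, 17, 18 and 17 were called higher. The difference between these classes was not tested. Ndufv1, which binds the flavin that accepts electrons from NADH, had 71.5, 74.2 and 78.2 FPKM in LPS GMPs, against 58.5, 63.1 and 65.7 FPKM in naive GMPs (limma adjusted p = 0.00174). In LPS proNeu1 it had 59.5, 56.1 and 66.3 FPKM, against 61.05, 63.8 and 57.6 FPKM in naive proNeu1, with overlap and a log2 fold change of -0.01 ± 0.06 (limma adjusted p = 0.947). The iron-sulfur subunit Ndufs1 likewise was called higher in GMPs (0.29 ± 0.08, limma adjusted p = 0.00337). In GMP-MoPs, proNeu1 and proNeu2 it had 0.01, 0.14 and -0.05 and was not called. The limma adjusted p was 0.934 at the highest and 0.616 in proNeu2. Ndufa9 was called in GMPs alone (0.26 ± 0.07, limma adjusted p = 0.00589). The most abundant member filed under complex I by its symbol, Ndufa4, now regarded as a complex IV subunit, was called higher in all 4 populations, with log2 fold changes of 0.42, 0.25, 0.32 and 0.47 in the order GMP, GMP-MoP, proNeu1 and proNeu2.

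Assembly factors help build complex I without remaining in it. In GMPs 7 of 8 were called higher after LPS and 0 lower. In proNeu2 1 was called higher and 1 lower, where 12.6% of all genes were called higher and 24.1% lower. Ndufaf4, at chr4:24898083-24905001, had 2.14, 2.84 and 3.12 FPKM in LPS proNeu2, against 5.55, 4.3 and 4.45 FPKM in naive proNeu2, with no overlap, and fell by 0.64 ± 0.12 on the log2 scale (limma adjusted p = 0.000133). In proNeu1 its log2 fold change was -0.33 ± 0.12 (limma adjusted p = 0.0357), and in GMPs, where the groups overlapped, 0.29 ± 0.12 (limma adjusted p = 0.0407). Ndufaf3 had 21.2, 20.1 and 23.01 FPKM in LPS proNeu2, against 15.1, 15.2 and 16.9 FPKM in naive proNeu2. Ndufaf8, the most abundant of the 8, was called higher in GMPs (0.81 ± 0.12), GMP-MoPs (0.57 ± 0.12) and proNeu1 (0.36 ± 0.12), with limma adjusted p of 0.0324 at the highest. In proNeu2 it had 0.28 (limma adjusted p = 0.0846).

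Complex II, the succinate dehydrogenase of the citric acid cycle, had the lowest medians of the 5 complexes. The summed level of its 4 subunits was 401 FPKM in LPS GMPs and 329 FPKM in naive GMPs. It was 437 FPKM in LPS GMP-MoPs and 411 FPKM in naive GMP-MoPs. The sums were 342 FPKM in LPS proNeu1 against 326 FPKM in naive proNeu1, and 280.0 FPKM in LPS proNeu2 against 269.7 FPKM in naive proNeu2. Sdha, the flavoprotein, had 141, 141 and 135 FPKM in LPS GMPs, against 118, 124 and 121 FPKM in naive GMPs (log2 fold change 0.19 ± 0.04, limma adjusted p = 0.00089). In the other 3 populations its log2 fold change was between -0.04 and 0.01, and it was not called. Sdhb, the iron-sulfur subunit, was called higher in GMPs (0.29 ± 0.08), GMP-MoPs (0.30 ± 0.08) and proNeu2 (0.23 ± 0.08), with limma adjusted p of 0.0251 at the highest. In proNeu1 it had 0.21 (limma adjusted p = 0.0522).

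Complex III had the highest median in GMPs, proNeu1 and proNeu2, or shared it: 0.65, 0.56 and 0.55, with 0.47 in GMP-MoPs. All 8 subunits were called higher in GMPs, and 6 in each other population. The small subunit Uqcrq, at chr11:53427922-53430831, had 67.3, 79.6 and 77.3 FPKM in LPS GMPs, against 23.9, 34.99 and 28.5 FPKM in naive GMPs, a log2 fold change of 1.34 ± 0.11 (limma adjusted p = 7.83e-10). In LPS proNeu2 it had 48.9, 55.05 and 55.9 FPKM, against 23.8, 28.5 and 30.3 FPKM in naive proNeu2. The groups were far apart in both. Uqcr10, another small subunit, at chr11:4701973-4704342, had 260.5, 291 and 313 FPKM in LPS GMP-MoPs, against 147, 149.5 and 126 FPKM in naive GMP-MoPs (1.03 ± 0.11, limma adjusted p = 6.08e-07). Its log2 fold changes were 1.17, 0.97 and 0.99 in GMPs, proNeu1 and proNeu2.

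The Rieske protein Uqcrfs1, which carries the iron-sulfur cluster, was called higher in all 4 populations, with log2 fold changes of 0.21 to 0.44. The core protein Uqcrc1 had 112, 115 and 122 FPKM in LPS GMPs, against 68.7, 75.4 and 80.5 FPKM in naive GMPs (0.63 ± 0.06, limma adjusted p = 1.95e-08). Elsewhere Uqcrc1 was not called, with 0.13 in GMP-MoPs, 0.09 in proNeu1 and 0.03 in proNeu2. Its partner Uqcrc2 was called lower in proNeu2, with a log2 fold change of -0.17 ± 0.07 (limma adjusted p = 0.0441), with overlapping groups. Uqcrh, the hinge protein and the most abundant of the complex, was called higher in all 4, with 0.44 to 0.68.

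In complex IV, 10 of 15 subunits were called higher after LPS in each population, with median log2 fold changes of 0.63 in GMPs, 0.44 in GMP-MoPs, 0.54 in proNeu1 and 0.55 in proNeu2. Cox8a had 409, 427 and 431 FPKM in LPS GMPs, against 218, 238 and 236 FPKM in naive GMPs, and 336, 356 and 379 FPKM in LPS proNeu2, against 201, 224 and 247 FPKM in naive proNeu2. The LPS libraries were all above the naive ones, with log2 fold changes of 0.87 ± 0.07 and 0.67 ± 0.07 and limma adjusted p of 1.45e-07 at the highest. Cox6a1 (0.64 to 0.75) and Cox5a (0.57 to 0.84) were called higher in all 4. Cox4i1, the main form of the subunit that senses adenine nucleotides and the most abundant of the complex, had 0.31, 0.22 and 0.28 in GMPs, GMP-MoPs and proNeu2, all called. In proNeu1 it had 0.20 (limma adjusted p = 0.0658).

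Several complex IV subunits have a second gene for another form. Cox7a2 had 169, 176 and 179.6 FPKM in LPS GMPs, against 88.01, 102 and 98.5 FPKM in naive GMPs (0.86 ± 0.07, limma adjusted p = 1.67e-09). Cox7a2l, a related protein that joins complexes III and IV into supercomplexes, had 165, 144 and 132 FPKM in LPS GMPs, against 169, 157 and 184 FPKM in naive GMPs, with overlap (-0.21 ± 0.13, limma adjusted p = 0.182). Cox7a2 thus made up 54.1% ± 3.40 of the summed FPKM of Cox7a1, Cox7a2 and Cox7a2l in LPS GMPs and 36.1% ± 2.83 in naive GMPs. The shares were 59.5% ± 2.26 in LPS GMP-MoPs against 50.2% ± 1.42 in naive GMP-MoPs, 64.9% ± 2.79 in LPS proNeu1 against 53.8% ± 2.88 in naive proNeu1, and 64.1% ± 3.95 in LPS proNeu2 against 57.7% ± 1.79 in naive proNeu2 (SD, n = 3 each). The LPS libraries lay above the naive ones in GMPs, GMP-MoPs and proNeu1 and overlapped them in proNeu2. Cox7a1, the muscle form, was scarce, with 1.86, 1.83 and 2.37 FPKM in LPS proNeu1, against 0.235, 0.585 and 0.149 FPKM in naive proNeu1 (1.20 ± 0.26, limma adjusted p = 0.00155).

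Cox6b2, known as a testis form, went down in GMPs. It had 23.4, 23.8 and 17.4 FPKM in LPS GMPs, against 27.5, 35.6 and 28.99 FPKM in naive GMPs (-0.50 ± 0.18, limma adjusted p = 0.0236). The groups did not overlap, and it was the one member called lower in GMPs. The basophil, eosinophil and mast cell genes were also lower in LPS GMPs, as given above, and their part in the change of Cox6b2 was not tested.

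In complex V, 16 of 17 subunits were called higher after LPS in GMPs, 12 in GMP-MoPs, 13 in proNeu1 and 15 in proNeu2, with median log2 fold changes of 0.47, 0.48, 0.39 and 0.33. Atp5k, subunit e, which helps pair ATP synthases into dimers, had the widest change, at chr5:108433244-108434448. It had 127, 154 and 169 FPKM in LPS GMPs, against 47.2, 64.6 and 67.3 FPKM in naive GMPs, and 162, 197 and 171 FPKM in LPS GMP-MoPs, against 85.2, 87.8 and 73.6 FPKM in naive GMP-MoPs. In LPS proNeu1 it had 142, 133 and 205 FPKM, against 57.3, 70.98 and 92.5 FPKM in naive proNeu1, and in LPS proNeu2 112, 132 and 161 FPKM, against 56.9, 53.5 and 67.7 FPKM in naive proNeu2. No pair of groups overlapped, and the log2 fold changes of 1.32 ± 0.18, 1.09 ± 0.18, 1.11 ± 0.18 and 1.16 ± 0.18 had limma adjusted p of 6.72e-05 at the highest. Atp5k also had the shortest exon length of all members, 371 bases.

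**Figure D4:**
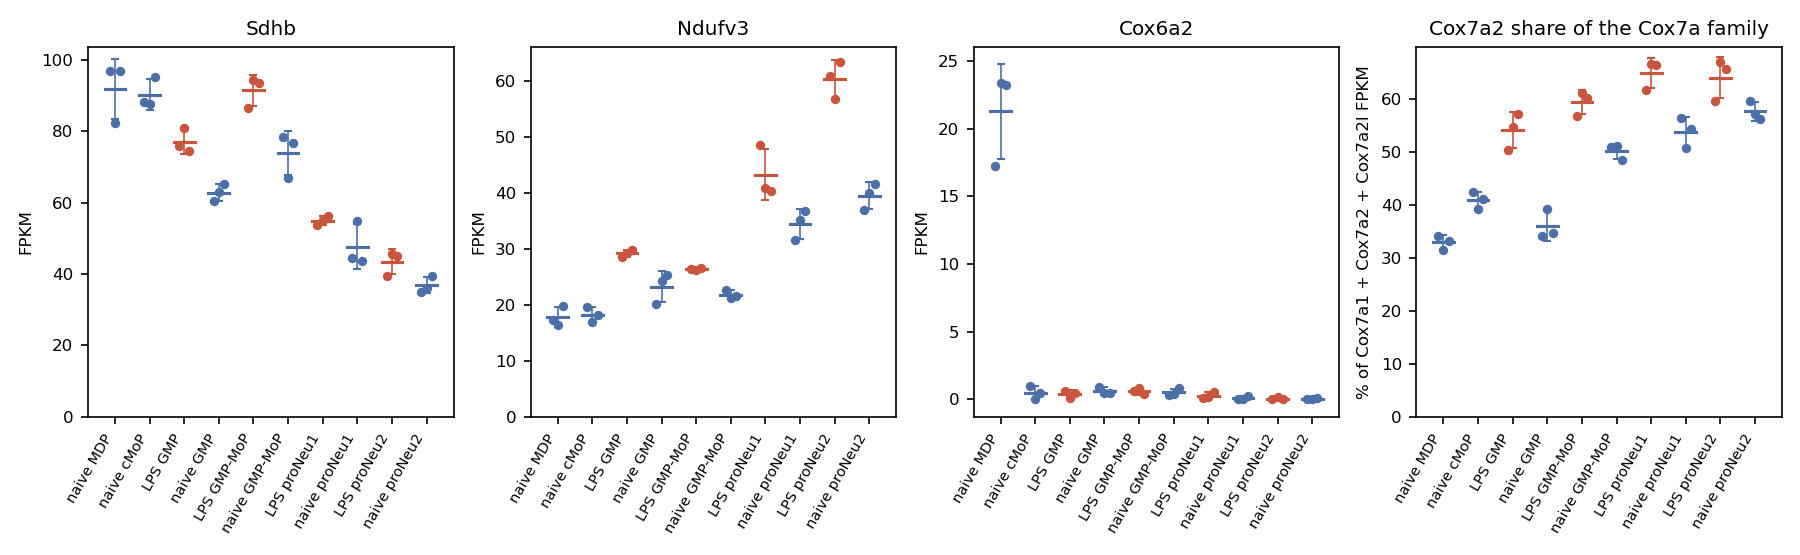
FPKM in each library of Sdhb, Ndufv3 and Cox6a2, and Cox7a2 in % of the summed FPKM of Cox7a1, Cox7a2 and Cox7a2l. Red marks LPS and blue naive, with group means and SD, and axes start at 0 or just below. Sdhb steps down along the neutrophil groups, Ndufv3 is highest in LPS proNeu2 and Cox6a2 is high only in the 3 MDP libraries. The mean Cox7a2 share is higher in every LPS group than in its naive counterpart.

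The 3 genes for the proton-carrying c subunit, Atp5g1, Atp5g2 and Atp5g3, make the same mature protein. All 3 were called higher in all 4 populations. Atp5g1 had 34.3, 36.4 and 38.8 FPKM in LPS GMPs, against 16.8, 19.9 and 19.5 FPKM in naive GMPs (0.93 ± 0.10, limma adjusted p = 1.02e-07). Atp5g3, the most abundant of the 3, had 377, 422 and 438 FPKM in LPS GMPs, against 219.6, 269.8 and 255 FPKM in naive GMPs (0.73 ± 0.09, limma adjusted p = 4.59e-07). The catalytic beta subunit Atp5b, the most abundant member of all, was called higher in GMPs (0.37 ± 0.08, limma adjusted p = 0.00044) and had 0.08, 0.14 and 0.09 in the others, not called. Atp5o, in the stalk that holds the enzyme still, was called higher in GMPs (0.26) and proNeu2 (0.24).

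Counting was uncertain for some members. The annotation holds more than one entry named Atp5o, and 49.3% of its 31-base words occur in another gene. The same share was 65.1% for Ndufaf2, 40.2% for Atp5g2, 34.8% for Uqcrb, 34.4% for Ndufb6 and 33.2% for Ndufa13. Levels per length also rest on the authors' exon lengths, which were recovered here from the deposited values. They were long for the small proteins Ndufb2 (4375), Ndufab1 (4387) and Atp5g1 (4912).

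The members had shorter transcripts than most genes, and the shorter ones had larger medians after LPS. An exon length under 1000 bases was found for 43 of 89 members (48.3%) and for 12.1% of all genes. In GMPs, the 14 members under 600 bases had a median log2 fold change of 0.68, the 29 of 600 to under 1000 bases 0.45, the 31 of 1000 to under 2000 bases 0.36 and the 15 of 2000 bases or more 0.32. The medians of all genes in these classes were 0.07, 0.13, 0.07 and −0.10. In proNeu2 the members' medians were 0.60, 0.32, 0.23 and 0.07, and those of all genes 0.06, 0.11, 0.04 and −0.10. In GMP-MoPs they were 0.56, 0.31, 0.19 and 0.13, and in proNeu1 0.61, 0.36, 0.20 and 0.10. The members' median lay above that of all genes in each class and population.

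**Figure D5:**
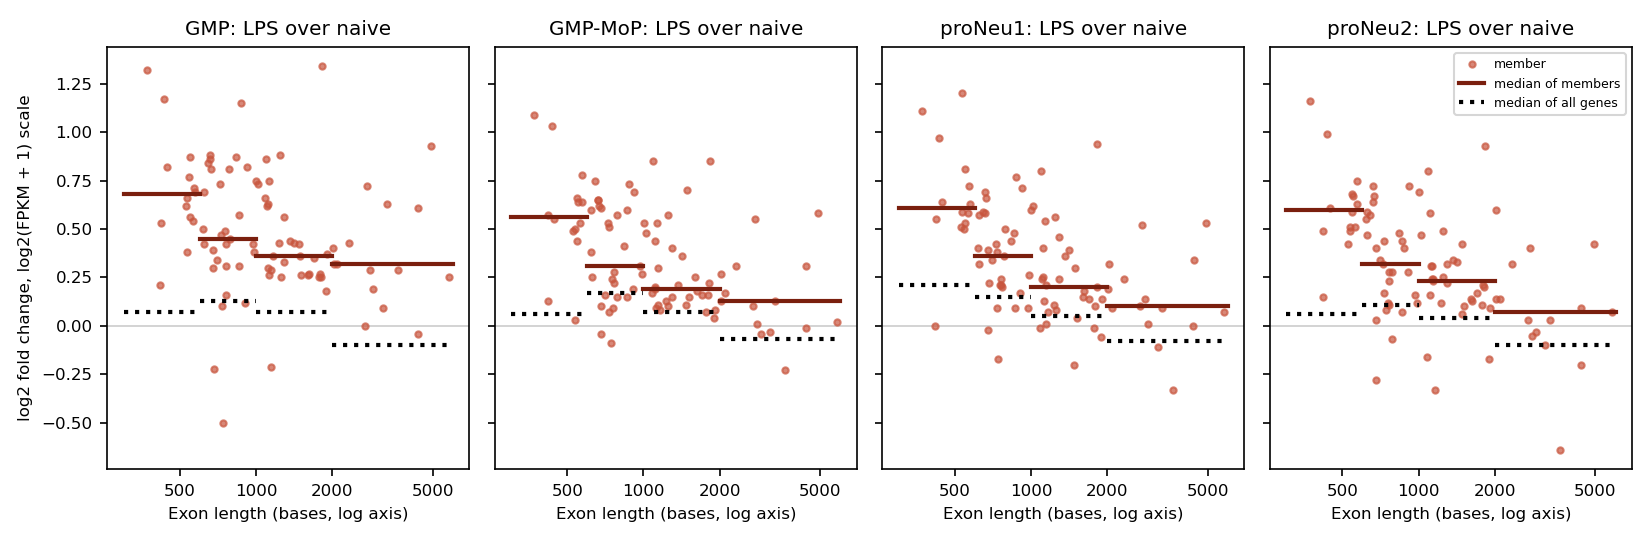
Log2 fold change after LPS of the members against exon length in bases (log axis) in the 4 populations, with the median of the members (solid line) and of all genes (dotted line) in each length class. Members under 600 bases have medians of 0.56 to 0.68, and those of 2000 bases or more have medians of 0.07 to 0.32.

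When the trend of all genes with exon length and GC content was taken out, 70 members were still called higher in GMPs, 40 in GMP-MoPs, 36 in proNeu1 and 40 in proNeu2, all of them among those counted above. The medians became 0.33, 0.13, 0.16 and 0.15. Complex III then had medians of 0.59, 0.29, 0.30 and 0.36, complex IV of 0.49, 0.28, 0.35 and 0.36, and complex II of 0.18, 0.00, 0.01 and −0.01. In proNeu1 the median of complex III was now below that of complex IV. Called higher in all 4 populations were 30 members.

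Other mitochondrial genes and the other short, abundant transcripts give a setting for these counts. Of 76 cytosolic ribosomal proteins, 36, 31, 31 and 40 were called higher after LPS in GMPs, GMP-MoPs, proNeu1 and proNeu2, with medians of 0.18, 0.16, 0.18 and 0.22. Of 77 mitochondrial ribosomal proteins, 62, 33, 26 and 17 were called higher, with medians of 0.43, 0.15, 0.17 and 0.09, and 13 were called lower in proNeu2. Of 17 genes of pyruvate dehydrogenase and the citric acid cycle, 11, 5, 5 and 2 were called higher and 0, 3, 2 and 2 lower. Of 14 proliferation genes, 7, 6, 8 and 7 were called higher. Their summed level was 1426 to 1486 FPKM in LPS GMPs and 1291 to 1323 FPKM in naive GMPs. It was 1608 to 1661 FPKM in LPS GMP-MoPs against 1420 to 1602 FPKM in naive GMP-MoPs. In LPS proNeu1 it was 1674 to 1718 FPKM, against 1419 to 1520 FPKM in naive proNeu1. In LPS proNeu2 it was 1855 to 1901 FPKM, against 1598 to 1714 FPKM in naive proNeu2. The part of proliferation in the members' change was not tested.

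The size of the LPS effect was compared between populations as an interaction in the same limma fit. Between GMP-MoPs and GMPs, 12 members had a lower log2 change in GMP-MoPs and 0 a higher one, where 24.9% of all genes were called and 11.1% were lower in GMP-MoPs. Between proNeu1 and GMPs, 10 had a lower log2 change in proNeu1 and 0 a higher one, against 22.1% of all genes called and 10.2% in that direction. Both shares among the members, 12 and 10 of 89, are close to those of all genes in that direction. In the higher direction, 13.8% and 11.9% of all genes were called, against 0 members in both. The median difference was −0.14 and −0.16 for the members and 0.02 and 0.01 for all genes. The 2 comparisons share the GMP libraries. Uqcrc1 differed in both, by -0.51 ± 0.09 between GMP-MoPs and GMPs (limma adjusted p = 0.000158) and by -0.54 ± 0.09 between proNeu1 and GMPs (limma adjusted p = 9.53e-05). Without the LPS libraries numbered 2 the counts were 3 and 2. With the replicate number as a block within the LPS libraries, chosen after seeing that these deviated together, they were 17 and 18, and limma called all of them lower. Between proNeu2 and proNeu1, limma called 0 members, 4 had an unadjusted p under 0.05 and voom on recovered reads called 0, against 0.307% of all genes called.

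Among naive populations, expression varied over the 6 groups for 82 of 89 members in the limma F test, where 88.5% of all genes were called. Each step was then tested separately. Several of these comparisons share a group with each other or with the LPS comparisons above, so their counts are not independent.

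Naive GMP-MoPs were above naive GMPs. Of the 89 members, 50 were called higher and 3 lower, where 50.6% of all genes were called and 21.4% higher, and the members' median log2 fold change was 0.23 against −0.04 for all genes. All 4 complex II subunits, 6 of 8 of complex III, 9 of 15 of complex IV, 11 of 17 of complex V and 19 of 37 of complex I were called higher. Ndufs6, an accessory subunit that binds zinc, had 63.7, 69.7 and 61.6 FPKM in naive GMP-MoPs, against 38.7, 46.6 and 49.6 FPKM in naive GMPs (0.53 ± 0.10, limma adjusted p = 0.000154). Sdha had 151, 152 and 153 FPKM in naive GMP-MoPs, against 118, 124 and 121 FPKM in naive GMPs (0.32 ± 0.04, limma adjusted p = 1.3e-06). Called lower were Cox6b2 (-1.13 ± 0.18), Cox7a2l (-0.43 ± 0.13) and Ndufa6 (-0.27 ± 0.09). Uqcrq (0.49), Atp5k (0.47) and Ndufa5 (0.44) were among those called higher. Cox4i2, a hypoxia-linked form, was scarce, with 1.43, 0.915 and 2.34 FPKM in naive GMP-MoPs, against 0.0956, 0.344 and 0.43 FPKM in naive GMPs (0.96 ± 0.24, limma adjusted p = 0.00146). Of the other lists, 40 of 77 mitochondrial ribosomal proteins and 12 of 17 citric acid cycle genes were called higher, but 1 of 76 cytosolic ribosomal proteins. The basophil, eosinophil and mast cell sums were 21.8 to 46.6 FPKM in naive GMP-MoPs against 18230 to 20124 FPKM in naive GMPs, and their part in these differences was not tested. Without naive GMP replicate 1, 34 members were called in either direction.

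The 2 kinds of monocyte progenitor were close. Between naive GMP-MoPs and naive cMoPs, 8 members were called higher and 4 lower, where 40% of all genes were called, with medians of 0.06 for the members and 0.01 for all genes. Higher in GMP-MoPs were Ndufaf1 (0.42), Atp5g1 (0.38), Cox7a2 (0.34), Ndufs6 (0.29) and Ndufa4 (0.28), with Uqcrc1 and Ndufv3 among the rest. Among those lower were Cox4i2 (-0.62), Ndufaf7 (-0.31) and Sdhb (-0.29). With the length and GC trend taken out, the split was 8 higher and 8 lower. The count was 7 without naive cMoP replicate 2 and 7 without naive GMP-MoP replicate 2.

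Between naive cMoPs and naive MDPs, 26 members were called higher and 3 lower, where 47% of all genes were called and 18.2% higher, with medians of 0.15 for the members and −0.07 for all genes. Ndufb3, an accessory subunit of the membrane arm at chr1:58586384-58595964, had 75.3, 81.2 and 83.6 FPKM in cMoPs, against 47.4, 49.6 and 51.1 FPKM in MDPs (0.69 ± 0.09, limma adjusted p = 6.25e-07). Ndufa1 (0.50), Uqcrb (0.38), Ndufaf8 (0.37) and Ndufc1 (0.35) were also called higher, and Ndufaf1 (-0.36) and Ndufb2 (-0.33) lower. With median-of-ratios scaling the split was 51 higher and 3 lower. Erythroid and megakaryocyte genes (8 of 10 called lower) summed to 2.79 to 6.92 FPKM in cMoPs and 57.45 to 96.9 FPKM in MDPs, and their part was not tested. The count of members called depended on the libraries: it was 16 without naive cMoP replicate 1 and 17 without naive MDP replicate 2.

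The widest difference of any member belonged to Cox6a2, the heart and muscle form of a complex IV subunit, at chr7:128205435-128206387. It had 1.00, 0 and 0.45 FPKM in cMoPs, against 17.2, 23.4 and 23.2 FPKM in MDPs (-3.95 ± 0.21, limma adjusted p = 5.01e-14). Libraries outside MDPs lay between 0 and 1.00 FPKM. In MDPs it made up 9.13% ± 1.46 of the summed FPKM of Cox6a1 and Cox6a2 (SD, n = 3), and at most 0.29% on average in any other group. The 4 lymphoid genes summed to 18.5 to 21.9 FPKM in cMoPs and 168 to 230.0 FPKM in MDPs, and their part in the Cox6a2 level was not tested.

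Along the neutrophil path, members did not move together at the first step. Between naive proNeu1 and naive GMPs, 13 were called higher and 14 lower, where 58.3% of all genes were called, 18.5% higher and 39.7% lower. The median was 0.00 for the members and −0.14 for all genes. With median-of-ratios scaling, which moved the median of all genes to −0.01, the split was 29 higher and 5 lower. Ndufb3 had 97.4, 108 and 106 FPKM in naive proNeu1, against 54.7, 70.6 and 70.8 FPKM in naive GMPs (0.67 ± 0.09, limma adjusted p = 6.35e-07). Ndufv3, a small accessory subunit of the NADH-oxidising module, had 31.5, 35.1 and 36.8 FPKM in naive proNeu1, against 20.2, 24.2 and 25.4 FPKM in naive GMPs (0.55 ± 0.08, limma adjusted p = 3.06e-06). Neither pair of groups overlapped. Uqcrc1 (0.52), Cox7a2 (0.49) and Ndufs6 (0.42) were also called higher. Called lower were Cox6b2 (-0.77), Cox6a2 (-0.59), Cox7a2l (-0.55), Ndufaf7 (-0.48) and Sdhb (-0.40). Basophil, eosinophil and mast cell sums were 318 to 863 FPKM in naive proNeu1 against 18230 to 20124 FPKM in naive GMPs, and their part was not tested.

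At the second step most changes were downward. Between naive proNeu2 and naive proNeu1, 1 member was called higher and 36 lower, where 31.4% of all genes were called and 21.4% lower, with medians of −0.18 for the members and −0.06 for all genes. All 4 complex II subunits were called lower, as were 4 of 8 assembly factors, 8 of 17 complex V subunits and 12 of 37 complex I subunits. Atp5b had 477, 500.2 and 507 FPKM in naive proNeu2, against 614, 635 and 597 FPKM in naive proNeu1 (-0.31 ± 0.08, limma adjusted p = 0.00342). Ndufaf4 (-0.60), Ndufaf6 (-0.55), Ndufaf1 (-0.54), Atp5o (-0.48) and Ndufaf2 (-0.43) had the widest falls. The 1 member called higher was Ndufb3 (0.26 ± 0.09, limma adjusted p = 0.0313), whose groups overlapped. Of 76 cytosolic ribosomal proteins 40 were called lower, with a median of −0.23. The members' count was 18 with median-of-ratios scaling, 18 without naive proNeu1 replicate 2, 20 without naive proNeu2 replicate 1 and 24 without naive proNeu1 replicate 3.

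Later neutrophil progenitors lay below monocyte progenitors. Between naive proNeu2 and naive cMoPs, 59 members were called lower and 7 higher, where 65.8% of all genes were called, 43% lower and 22.8% higher, with medians of −0.34 for the members and −0.15 for all genes. With median-of-ratios scaling, under which the median of all genes was 0.00, 36 were lower and 10 higher. Sdhb, at chr4:140961203-140979193, had 35.02, 36.1 and 39.3 FPKM in naive proNeu2, against 88.2, 87.5 and 95.1 FPKM in naive cMoPs, a log2 fold change of -1.27 ± 0.08 (limma adjusted p = 4.06e-13). Naive proNeu1 lay between, with 44.5, 54.9 and 43.8 FPKM. The other subunits of complex II were also called lower, Sdha with a log2 fold change of -0.45 ± 0.04 (limma adjusted p = 2.12e-09). Ndufaf7 (-0.92), Atp5o (-0.89), Ndufaf4 (-0.88), Uqcrfs1 (-0.70) and Cox4i1 (-0.68) were called lower.

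The 7 members that went the other way included Ndufv3, which had 36.9, 40.04 and 41.6 FPKM in naive proNeu2, against 19.6, 16.9 and 18.3 FPKM in naive cMoPs (1.07 ± 0.08, limma adjusted p = 2.09e-11). Ndufaf3 (0.76), Ndufb3 (0.63), Cox6b2 (0.47), Cox7a2 (0.41) and Uqcrc1 (0.23) were also called higher. Cox4i2 had 0.0948, 0.143 and 0 FPKM in naive proNeu2, against 2.48, 2.61 and 3.49 FPKM in naive cMoPs (-1.83 ± 0.24, limma adjusted p = 2.28e-07). Of the other lists, 70 of 76 cytosolic ribosomal proteins were called lower with a median of −0.50, 42 of 77 mitochondrial ribosomal proteins with −0.24 and 12 of 17 citric acid cycle genes with −0.30. The 10 most abundant genes took 16.5% of the table's FPKM in naive proNeu2 and 6.49% in naive cMoPs, and their part in these falls was not tested. Markers of some other cells moved the other way. Macrophage genes (6 of 7 called higher) summed to 206.6 to 249.7 FPKM in naive proNeu2 and 15.1 to 16.99 FPKM in naive cMoPs. Basophil, eosinophil and mast cell genes (7 of 12 called higher) summed to 224 to 258 FPKM in naive proNeu2 and 11.5 to 13.4 FPKM in naive cMoPs. Erythroid and megakaryocyte genes (8 of 10 called higher) summed to 41.65 to 103.6 FPKM in naive proNeu2 and 2.79 to 6.92 FPKM in naive cMoPs. The 4 lymphoid genes summed to 11.2 to 11.4 FPKM in naive proNeu2 and 18.5 to 21.9 FPKM in naive cMoPs. The part of these cells was not tested.

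GMP-MoPs also lay above the earlier neutrophil progenitors. Between naive GMP-MoPs and naive proNeu1, 44 members were called higher and 3 lower, where 47.7% of all genes were called and 30.2% higher, with medians of 0.23 for the members and 0.09 for all genes. With median-of-ratios scaling the split was 27 and 8. Sdhb had 78.5, 66.99 and 76.6 FPKM in naive GMP-MoPs, against 44.5, 54.9 and 43.8 FPKM in naive proNeu1 (0.63 ± 0.08, limma adjusted p = 5.33e-07), with no overlap. Ndufaf7 (0.56), Ndufaf4 (0.56) and Cox7a1 (0.86) were among those called higher, and Cox4i2 was listed at 0 in all 3 naive proNeu1 libraries. The 3 called lower were Ndufv3 (-0.63), Ndufaf3 (-0.44) and Ndufb3 (-0.25). Of 76 cytosolic ribosomal proteins, 59 were called higher, with a median of 0.30. Basophil, eosinophil and mast cell genes (11 of 12 called lower) summed to 21.8 to 46.6 FPKM in naive GMP-MoPs and 318 to 863 FPKM in naive proNeu1. Macrophage genes (6 of 7 called lower) summed to 20.1 to 21.9 FPKM in naive GMP-MoPs and 84.0 to 86.3 FPKM in naive proNeu1. The 10 most abundant genes took 8.52% of the table's FPKM in naive GMP-MoPs and 13.9% in naive proNeu1, and the part of these differences was not tested.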

How the data were processed

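The data are 30 RNA-seq libraries of sorted bone marrow progenitors, in 10 groups of 3. Total RNA, per the labels' protocols, was taken with an RNeasy Micro kit and libraries with a NEBNext UltraII Directional kit. Per the submitters' processing notes, the tools were Trimmomatic 0.38.0, STAR 2.7.8 and featureCounts 2.0.1, with GRCm38/mm10. Which annotation release and which strand setting were used is not given in the sources used here.

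The authors deposited FPKM values for 11383 genes by symbol, each with a mean of at least 1 over the libraries. With a single exon length for each gene and a single total for each library, every value came out as a whole number of reads (tolerance 0.02 reads, or 1e-07 of the reads where that is more, and at most 0.1 reads). The exon length of the GENCODE M21 annotation gave whole reads for 2495 genes. For the others, a search took the shortest length that gave whole reads. After shuffling a gene's values over the libraries, at a fixed length and without that search, whole reads came out in 0 of 200 genes. The shuffling therefore does not check the lengths that were searched for. The library totals give a depth of 23.6 to 41.3 M reads, and genes of the table took 99.0% to 99.7% of it.

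Tests were run with limma 3.58.1 in R 4.3.3 on log2(FPKM + 1), with one fit over all 30 libraries, a term per group, no covariate, trended moderation and Benjamini-Hochberg adjustment over 11383 genes, two-sided, with a threshold of 0.05. A filter of 1 FPKM in at least 3 libraries removed 0 genes. The code was tested on simulated data. Tables and sequences were handled in Python 3.11.15 with pandas 2.3.3 and numpy 2.4.6, and promoter windows come from RefSeq, build GRCm38.p6.

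Named with values are the most abundant and the most variable member of each complex, a core panel of 11, paired isoforms, and in each comparison the 5 largest called changes in each direction with every called change of at least 1 (log2). Genes outside this rule (such as Ndufa5 and Ndufaf3 in the LPS comparison of proNeu2) were chosen after their values were seen. The values of 1 member are not reported here singly. Members and lists were chosen with earlier results of these data known. The samples share replicate numbers. Same-numbered libraries of naive GMP-MoPs and naive proNeu1 came nearest to pairing outside the LPS groups, with correlations of 0.097 to 0.375. In no comparison of LPS with naive groups or between naive groups did every same-numbered pair correlate above 0.1, so none was treated as paired. Between LPS groups every pair did in 5 of 6 cases, so differences in the LPS change were also fitted with a block within the LPS libraries. No replicates agreed within sampling noise. The alternatives were median-of-ratios scaling, a pseudocount of 0.1, no filter on low values, a mean of at least 5 FPKM, voom on recovered reads, a replicate block, the compared groups alone, a length and GC trend and each library left out. Leaving out the LPS libraries numbered 2 and the block within the LPS libraries were added after seeing the data.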

Additional observations from a re-analysis of the deposited data

Results flagged for a closer look

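The change after LPS differed between populations for some members, by an interaction term in the limma fit with Benjamini-Hochberg adjustment over all genes. Values are the log2 change after LPS in the first population minus that in GMPs. For GMP-MoPs the count was 12 of 89 members, all lower than in GMPs. These were Ndufaf4 (−0.52), Uqcrc1 (−0.51), Uqcrq (−0.49), Ndufs6 (−0.46), Ndufa12 (−0.42), Ndufb5 (−0.41), Ndufa5 (−0.41), Ndufab1 (−0.30), Sdhd (−0.30), Ndufc2 (−0.25), Sdha (−0.24) and Uqcrfs1 (−0.23). For proNeu1 the count was 10, again all lower than in GMPs. These were Ndufaf6 (−0.67), Ndufaf1 (−0.63), Ndufaf4 (−0.62), Uqcrc1 (−0.54), Ndufs6 (−0.43), Atp5g1 (−0.40), Sdhd (−0.32), Ndufc2 (−0.28), Ndufv1 (−0.26) and Sdha (−0.18).

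Both sets use the same GMP libraries. The share of all genes with a lower change was 11.1% and 10.2%, and with a higher change 13.8% and 11.9%. With a replicate block within the LPS libraries, which deviated together by number, the counts were 17 and 18. The first count was 3 without naive GMP replicate 1, 6 without naive GMP-MoP replicate 1, 6 without naive GMP-MoP replicate 2, 3 without LPS GMP replicate 2, 2 without LPS GMP replicate 3 and 4 without LPS GMP-MoP replicate 1. The second was 4 without naive GMP replicate 1, 4 without naive proNeu1 replicate 2, 5 without naive proNeu1 replicate 3, 16 without LPS GMP replicate 1, 3 without LPS GMP replicate 2, 4 without LPS GMP replicate 3, 6 without LPS proNeu1 replicate 1, 3 without LPS proNeu1 replicate 2 and 20 without LPS proNeu1 replicate 3. Basophil, eosinophil and mast cell genes were lower in LPS GMPs than in naive GMPs, and their part in these differences was not tested.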

How the results depend on the processing

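No result reversed. Of 462 results on named members, 235 were called. Over all alternatives 17282 values kept their side of the threshold, 348 lost the call and 179 gained it. Values not called in either setting were counted as kept whatever their direction. Counts of members called moved by over 1.5 times as follows, and the cause was not tested. With median-of-ratios scaling, cMoP against MDP had 54 (29 as reported) and proNeu2 against proNeu1 had 18 (37 as reported). With the compared groups fitted alone these were 44 and 21, and the lower LPS change in proNeu1 than in GMPs was called for 5 members (10 as reported). With the length and GC trend removed, the 2 LPS differences against GMPs had 19 and 20, and without the LPS libraries numbered 2 they had 3 and 2. With a replicate block, the difference between proNeu1 and GMPs had 17, and 18 with the block within the LPS libraries alone. The numbers pair the LPS libraries with each other in 5 of 6 pairs of populations, not with the naive ones.

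Leaving out 1 library at a time gave 16 to 33 members for cMoP against MDP, 18 to 44 for proNeu2 against proNeu1, 34 to 56 for GMP-MoP against GMP, 7 to 15 for GMP-MoP against cMoP, and 2 to 16 and 3 to 20 for the LPS differences against GMPs. It gave 21 to 28 for proNeu1 against GMP, 59 to 72 for proNeu2 against cMoP and 33 to 51 for GMP-MoP against proNeu1. For LPS against naive it gave 70 to 79 in GMPs, 46 to 52 in GMP-MoPs, 41 to 56 in proNeu1 and 40 to 58 in proNeu2. Between 38 and 49 members were called higher in all 4 LPS comparisons under every alternative applied to them except the length and GC trend, which gave 30. Members with few reads, such as Cox4i2, Cox6a2 and Cox7a1, are the least precise.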

Other observations

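Cytochrome c and the regulators of mitochondrial gene expression were also measured. Cycs, the electron carrier between complexes III and IV, had 71.2 ± 10.1 FPKM in LPS GMPs and 36.2 ± 3.23 FPKM in naive GMPs (SD, n = 3 each), a log2 fold change of 0.95 (limma adjusted p = 6.35e-08). In LPS proNeu2 it had 35.6 ± 4.79 FPKM, against 33.8 ± 3.1 FPKM in naive proNeu2, with a log2 fold change of 0.07 (limma adjusted p = 0.621). The change in GMP-MoPs was 0.57 lower than in GMPs on the log2 scale (limma adjusted p = 0.00465). A list of mainly assembly factors, with cytochromes c and c1, held 35 measured genes. Of these, 15 were called higher and 1 lower after LPS in GMPs. The counts were 7 and 3 in GMP-MoPs, 4 and 5 in proNeu1, and 3 and 7 in proNeu2. The shares of all genes called higher and lower were 19.3% and 29.6% in GMPs, 13.4% and 17.6% in GMP-MoPs, 11.2% and 17.2% in proNeu1, and 12.6% and 24.1% in proNeu2.

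Of 12 regulators of mitochondrial biogenesis, 2 were called higher and 3 lower after LPS in GMPs, 0 and 5 in GMP-MoPs, 0 and 3 in proNeu1, and 1 and 6 in proNeu2. In GMPs these shares, 16.7% and 25%, were close to those of all genes. Pprc1, a coactivator related to PGC-1, had 6.1 ± 0.837 FPKM in LPS proNeu2 and 10.7 ± 1.47 FPKM in naive proNeu2. Tfam, which packages and transcribes mitochondrial DNA, had 7.39 ± 0.13 FPKM in LPS proNeu2 and 8.15 ± 0.517 FPKM in naive proNeu2. Myc had 24.9 ± 3.15 FPKM in LPS proNeu2 and 51.1 ± 3.8 FPKM in naive proNeu2. The 1 regulator called higher in proNeu2 is not among these 3.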
